A study of Mus musculus with 6 samples.

Results

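The transcripts of 36 genes that control the nuclear entry of TFEB and the activity of mTORC1 at the lysosome were described in the retinal pigment epithelium (RPE) of wild-type (WT) and Abca4-/- (Abca4KO) mice. The 36 genes were taken by symbol from a table of 54532 genes. They cover TFEB and TFE3 with the folliculin complex, mTORC1 with its activator and inhibitors, the Rag GTPases and Ragulator, GATOR1 and amino acid sensors, AMPK with its kinase LKB1, and calcineurin. Each had 1 row in the table, and all 36 passed the filter on low counts that left 17340 genes. Bulk RNA was sequenced from 3 mice of each genotype, taken 5 h after light onset. The WT mice were 129S1/SvlmJ. The Abca4KO mice carried the germline allele Abca4tm1Ght, so that line and genotype change together and cannot be told apart. Both groups had the Leu450 form of Rpe65 and were raised in 12-h cyclic light on a standard diet, and no source used here gives their age.

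The RPE is a pigmented monolayer that ingests the shed tips of photoreceptor outer segments every day and degrades them in lysosomes. TFEB and its relative TFE3 are transcription factors of lysosomal and autophagy genes. When amino acids are plentiful, Rag GTPases recruit mTORC1 to the lysosome, where it phosphorylates TFEB and keeps it in the cytosol. Low energy activates AMPK, which restrains mTORC1, and calcium released from the lysosome activates calcineurin, which dephosphorylates TFEB. This circuit is run mostly by phosphorylation and by location, neither of which transcript counts measure.

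Library totals lay between 17047286 and 19841307 counts, and the 36 genes held between 0.202% and 0.226% of them. Abca4 measured 952 ± 18.1 CPM (counts scaled to library size) in WT, and 36.2 ± 3.31 CPM remained in Abca4KO (SD over 3 mice), so no library went against its label. All 10 RPE markers were detected in every library and summed to 33085 to 41776 CPM in WT and 37679 to 40108 CPM in Abca4KO, with the lowest sum in WT 2. WT 2 also stood apart in 12 interferon response genes, at 3148 CPM against 207 to 396 CPM in the other 5 libraries. Abca4KO 1 had the highest sum of 12 rod photoreceptor markers, 3525 CPM against 715 to 1864 CPM in the others. Sums were 2243 to 4172 CPM in WT and 3752 to 6709 CPM in Abca4KO for 12 macrophage and microglia markers and 339 to 565 CPM in WT and 554 to 849.9 CPM in Abca4KO for 10 endothelial markers. No marker of any list was at 0 in any library. In bulk samples fewer cells of a type and less RNA per cell cannot be told apart.

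With edgeR, 0 of the 36 transcripts differed between the genotypes at an adjusted p under 0.05, a threshold that 0.0461% of all tested genes passed. DESeq2 and limma-voom with sample weights also called none of the 36. At an unadjusted p under 0.05, 3 of the 36 differed in edgeR, against 7.02% of all tested genes. These were Rragc and Nprl2, both higher in Abca4KO, and Prkaa2, lower in Abca4KO. The genes under that threshold changed with the tool, and the share of all tested genes is given for edgeR only. In DESeq2 they were Rragc, Prkaa2 and Mtor, with Nprl2 at an unadjusted p of 0.0688. In limma-voom they were Nprl2, Prkaa2, Mtor, Prkab2 and Tfe3, with Rragc at 0.0733. The values of WT and Abca4KO were fully separated for Rragc, Nprl2, Prkaa2, Depdc5 and Prkab1, which makes 5 of 36, against 12.8% of all tested genes. Abca4KO was above WT in 2 of the 5 (5.93% of all tested genes) and below WT in 3 (6.85%). These shares are near the background. The median log2 fold change was 0.024 over the 36 genes and -0.011 over all tested genes, with 20 of the 36 positive against 47.8% of all tested genes.

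The 95% interval of the fold change lay within 1.5-fold in either direction for 30 of them (83.3%), against 47.9% of all tested genes. It did so for 79.9% of 154 other tested genes of the same pathways, so this is not particular to the 36. The 6 of the 36 with a wider or shifted interval were Mtor, Prkaa2, Prkab2, Nprl2, Sesn2 and Rragb. The median coefficient of variation of the 36 between mice was 8.82% in WT and 7.50% in Abca4KO, against 14.7% and 13.0% over all tested genes. Over the 154 other pathway genes it was 7.28% and 8.95%.

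**Figure D1:**
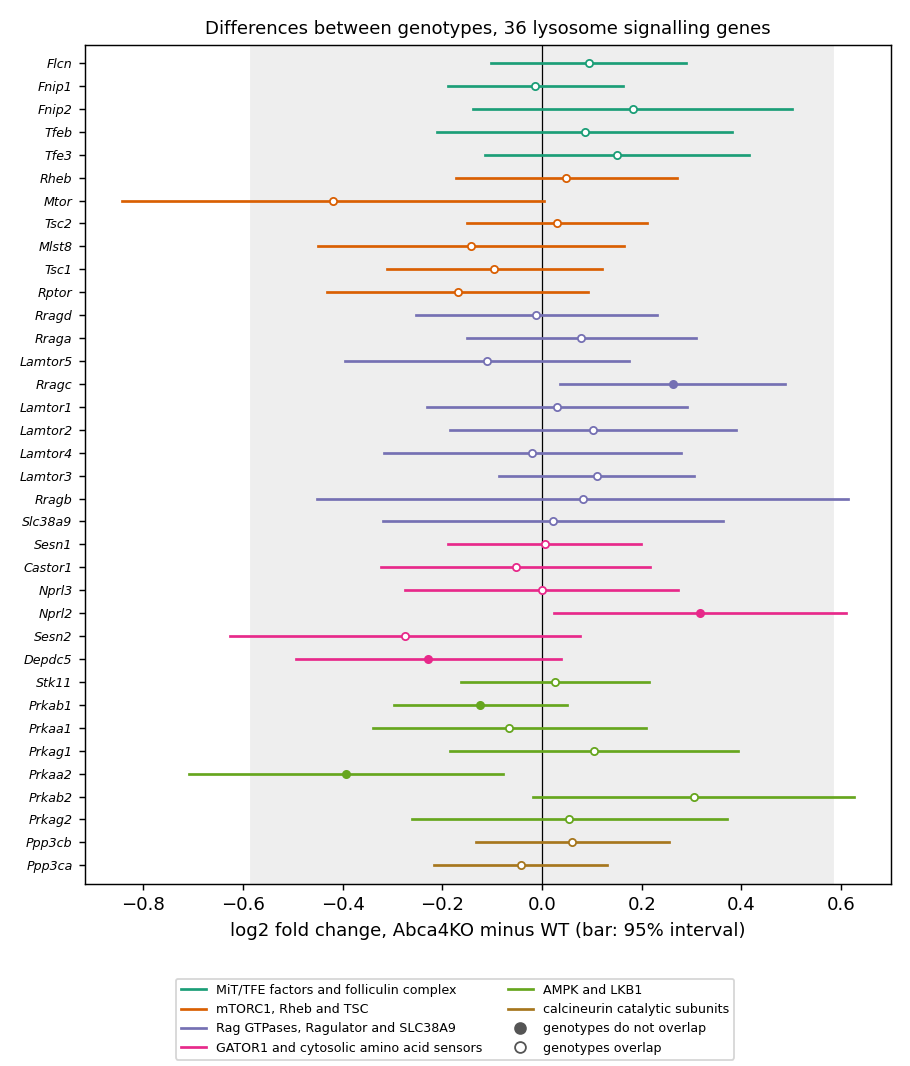
Log2 fold change (Abca4KO minus WT, x axis) of the 36 genes with its 95% interval (bars), grouped by role; filled points are genes whose libraries do not overlap between the genotypes, and the grey band is 1.5-fold in either direction. The intervals of 30 genes lie inside the band, and those of Rragc, Nprl2 and Prkaa2 do not cross 0.

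Upstream sequence is shown for the 5 genes whose genotypes did not overlap, as the 250 bases before the RefSeq start site in GRCm38.p6, written 5′ to 3′ on the gene's strand. Capitals mark CACGTG, the E-box core that MiT/TFE factors bind, and only the Rragc stretch holds one.
Rragc, chr4:123917183-123917432, plus strand: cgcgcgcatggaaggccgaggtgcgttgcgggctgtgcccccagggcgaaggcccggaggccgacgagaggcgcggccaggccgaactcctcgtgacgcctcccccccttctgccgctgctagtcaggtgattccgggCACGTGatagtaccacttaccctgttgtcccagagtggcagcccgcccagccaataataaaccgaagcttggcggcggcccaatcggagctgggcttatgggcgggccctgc
Nprl2, chr9:107541959-107542208, plus strand: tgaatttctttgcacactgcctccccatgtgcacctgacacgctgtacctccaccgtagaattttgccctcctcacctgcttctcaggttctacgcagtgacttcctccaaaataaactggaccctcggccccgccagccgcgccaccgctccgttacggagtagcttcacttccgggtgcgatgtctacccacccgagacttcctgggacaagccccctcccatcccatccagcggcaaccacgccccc
Depdc5, chr5:32863471-32863720, plus strand: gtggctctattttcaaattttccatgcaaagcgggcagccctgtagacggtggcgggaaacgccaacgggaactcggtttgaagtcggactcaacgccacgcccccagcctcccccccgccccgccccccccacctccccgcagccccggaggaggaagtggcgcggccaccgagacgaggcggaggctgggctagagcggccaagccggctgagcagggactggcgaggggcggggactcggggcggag
Prkaa2, chr4:105109899-105110148, minus strand: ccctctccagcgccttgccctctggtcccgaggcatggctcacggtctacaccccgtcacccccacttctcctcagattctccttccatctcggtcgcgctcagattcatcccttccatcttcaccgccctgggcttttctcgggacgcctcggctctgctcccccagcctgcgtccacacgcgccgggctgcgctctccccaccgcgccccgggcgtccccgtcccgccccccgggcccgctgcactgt
Prkab1, chr5:116024429-116024678, minus strand: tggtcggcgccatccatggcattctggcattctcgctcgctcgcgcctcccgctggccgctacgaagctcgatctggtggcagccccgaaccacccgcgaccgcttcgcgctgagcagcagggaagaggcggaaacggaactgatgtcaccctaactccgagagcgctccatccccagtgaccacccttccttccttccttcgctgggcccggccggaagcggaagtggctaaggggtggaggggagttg

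Windows from 250 bases before to 50 after the start site were searched on both strands for 34 of the 36 genes that had one. The CLEAR palindrome and its core TCACGTGA, the sites by which TFEB targets are recognised, were in none of them. Over all 27025 genes with a window, 0.370% held the palindrome and 1.12% the core. The shorter E-box CACGTG, which lies inside both, was in 6 of the 34 genes (17.6%) and in 8.09% of all genes. Besides Rragc, the 6 were Fnip1, Lamtor1, Lamtor4, Rheb and Rragb, and Lamtor4 held 2 and Rragb 3. The E-boxes are shown with 10 bases on each side, since they are the stretches that could be compared between members.
Rragc, chr4:123917311-123917336, plus strand: tgattccgggCACGTGatagtaccac
Fnip1, chr11:54438094-54438119, plus strand: agtttgctgcCACGTGatacggctcg
Lamtor1, chr7:101905759-101905784, plus strand: gccttcctatCACGTGccgcgggtcc
Lamtor4, chr5:138255352-138255377, plus strand: agaaagttaaCACGTGaacagctttt
Lamtor4, chr5:138255368-138255393, plus strand: aacagcttttCACGTGtaaaccaaac
Rheb, chr5:24842442-24842467, minus strand: cgcgcgcggtCACGTGggtgtgttgt
Rragb, chrX:153139821-153139846, plus strand: gagcccgggcCACGTGatggcgggtg
Rragb, chrX:153139912-153139937, plus strand: agggtagcggCACGTGacaggccctg
Rragb, chrX:153139945-153139970, plus strand: ggcaggttccCACGTGatcctggcct
The first base of the E-box lay 112 bases before the start site in Rragc, 75 in Fnip1, 68 in Lamtor1, 120 and 104 in Lamtor4, 96 in Rheb and 127, 36 and 3 in Rragb. Of these 6 genes, only Rragc was among those with an unadjusted p under 0.05. A match describes letters in a window and is not a measured binding site.

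**Figure D2:**
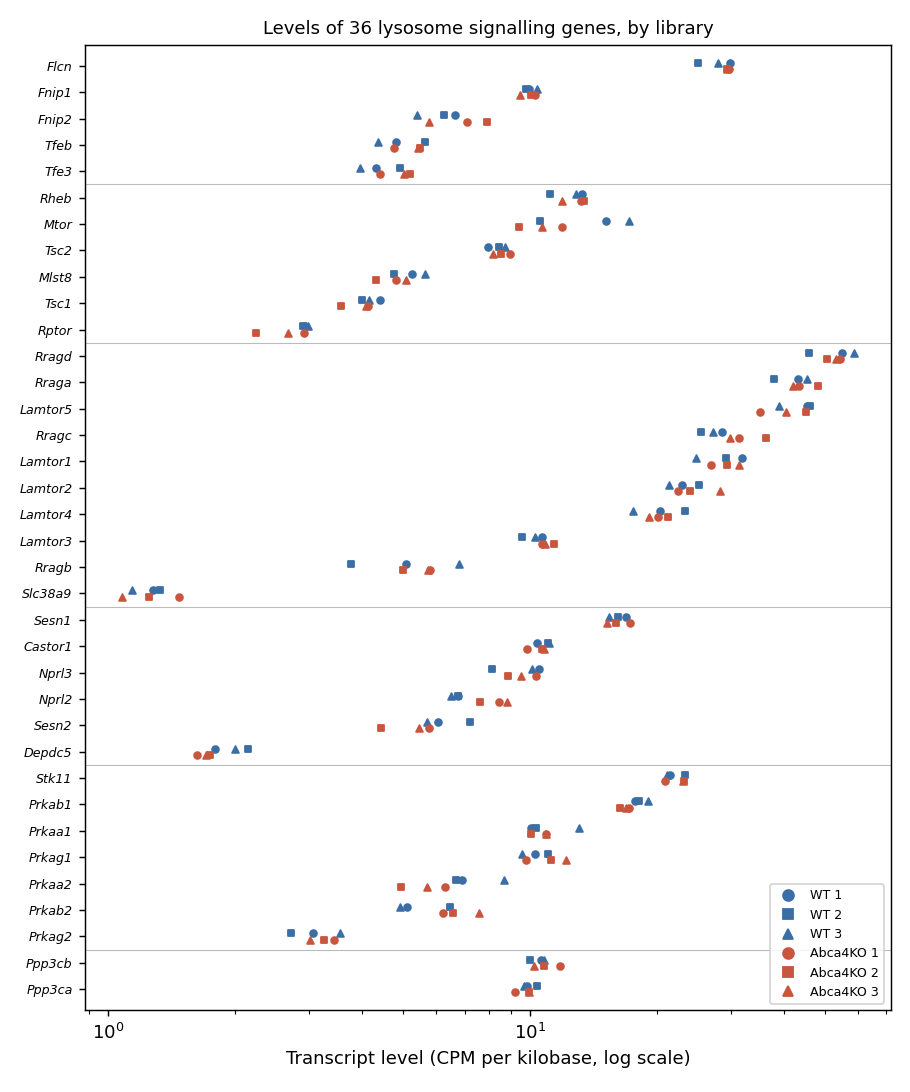
Transcript level per kilobase of gene model (CPM per kilobase, log axis) of the 36 genes in each of the 6 libraries; horizontal lines separate the roles, in the order TFEB and folliculin, mTORC1, Rag and Ragulator, GATOR1 and sensors, AMPK, calcineurin. Rragd is highest at 45.8 to 58.6 and Slc38a9 lowest at 1.08 to 1.48 CPM per kilobase.

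Where means are set against each other, WT comes first, each as mean ± SD over n = 3 mice. Levels of different genes were compared as CPM per kilobase of the deposited gene length, averaged over the 6 libraries. Rragd, the GTPase RagD and itself a known target gene of the MiT/TFE factors, had the highest level of the 36 at 52.9 CPM per kilobase, above 95.3% of tested genes. Rraga (43.4) and Lamtor5 (41.9) followed, with ranges of 37.9 to 48.1 and 35.2 to 46.1 that overlapped each other and the range of Rragd (45.8 to 58.6). Rragc, Lamtor1 and Flcn stood close together at 29.7, 28.8 and 28.5 CPM per kilobase. The transcription factors were far lower, Tfeb at 5.09 and Tfe3 at 4.64 CPM per kilobase, with overlapping ranges. The lowest levels per kilobase were those of Rptor (2.77), Depdc5 (1.84) and Slc38a9 (1.26). This order depends on the deposited length, which is 16704 bases for Slc38a9. In CPM, Slc38a9 (20.9 in WT and 21.2 in Abca4KO) lay above Rragb (11.8 in WT and 12.5 in Abca4KO).

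Tfeb gave no call between the genotypes. It measured 27.2, 32.0 and 24.7 CPM in WT 1, 2 and 3 and 27.0, 31.2 and 30.9 CPM in Abca4KO 1, 2 and 3 (log2 difference 0.085, SE 0.13, 95% interval -0.21 to 0.38, adjusted p = 0.925 in edgeR). The groups overlapped, with WT 2 the highest of all. Tfe3, its close relative, measured 40.1, 45.6 and 36.6 CPM in WT 1, 2 and 3 and 40.8, 48.2 and 46.7 CPM in Abca4KO 1, 2 and 3 (log2 difference 0.15, SE 0.11, 95% interval -0.12 to 0.42, adjusted p = 0.842 in edgeR). The groups overlapped for Tfe3 too, with WT 2 among the Abca4KO values. Both values depended on single libraries. The log2 difference of Tfeb was 0.19 without WT 2 and 0.0094 without WT 3, and that of Tfe3 was 0.24 without WT 2 and 0.084 without WT 3. Without WT 2 and Abca4KO 1 they were 0.24 and 0.29, with adjusted p-values of 0.384 and 0.222 in edgeR. In CPM the WT means were 28.0 for Tfeb and 40.7 for Tfe3. Divided by the deposited gene length, the 2 transcripts stood at nearly equal levels. Tfe3 made up 47.4%, 46.6% and 47.5% in WT 1, 2 and 3 and 48.0%, 48.6% and 48.1% in Abca4KO 1, 2 and 3 of their sum per length. The shares did not overlap between the genotypes, but differed by 1.07 percentage points. Mitf, the member of the family that specifies pigment cells, measured 194 ± 11.0 CPM against 177 ± 10.6 CPM (log2 difference -0.13, SE 0.081, adjusted p = 0.801 in edgeR).

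Folliculin, encoded by Flcn, is the GTPase-activating protein for RagC and RagD and is needed for mTORC1 to phosphorylate TFEB. Flcn measured 129, 108 and 120.5 CPM in WT 1, 2 and 3 and 128, 127 and 127 CPM in Abca4KO 1, 2 and 3 (log2 difference 0.094, SE 0.084, 95% interval -0.10 to 0.29, adjusted p = 0.861 in edgeR). The 3 Abca4KO libraries lay within 2 CPM of each other and inside the WT range, and WT 2 was the lowest. Its cofactors FNIP1 and FNIP2 are made from Fnip1, at 71.5 ± 2.24 CPM against 70.8 ± 3.08 CPM, and Fnip2, at 51.0 ± 5.36 CPM against 57.8 ± 9.05 CPM. Neither passed the test, with adjusted p-values of 0.984 and 0.841 in edgeR. Smcr8, which encodes a subunit of a complex related to folliculin, was named by the rule for the list of MiT/TFE relatives and partners. It measured 51.5 ± 0.968 CPM against 41.7 ± 5.23 CPM (log2 difference -0.30, SE 0.11, adjusted p = 0.676 in edgeR), with the genotypes fully separated.

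Of the Rag GTPases, Rragc was the one with separated groups. Rragc, which encodes RagC and lies at chr4:123917446-123936997, measured 95.2, 84.9 and 90.8 CPM in WT 1, 2 and 3 and 104, 121 and 99.7 CPM in Abca4KO 1, 2 and 3. The lowest Abca4KO library lay above the highest WT library, and Abca4KO 2 was the highest. The log2 difference was 0.26 (SE 0.10, 95% interval 0.037 to 0.49, adjusted p = 0.691 in edgeR). Its unadjusted p was 0.0283, and without Abca4KO 2 the log2 fold change was 0.18. Rragd measured 284, 237 and 303 CPM in WT 1, 2 and 3 and 281, 261 and 275 CPM in Abca4KO 1, 2 and 3 (log2 difference -0.011, SE 0.10, 95% interval -0.25 to 0.23, adjusted p = 0.988 in edgeR), with WT 2 lowest and WT 3 highest, so the groups overlapped fully. RagC and RagD take the same place in the Rag heterodimer. Rragd made up 65.8%, 64.3% and 68.3% in WT 1, 2 and 3 and 63.5%, 58.3% and 64.0% in Abca4KO 1, 2 and 3 of the sum of the pair per length, so that the Abca4KO shares all lay below the WT shares, with WT 2 and Abca4KO 3 nearly touching. With 3 against 3 libraries the exact 2-sided permutation test cannot give a p below 0.1, which it gave here, and adjusted over the 9 paralog pairs compared p was 0.225.

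RagA and RagB take the other place in the heterodimer. Rraga measured 68.2 ± 6.26 CPM against 72.1 ± 5.14 CPM and Rragb 11.8 ± 3.44 CPM against 12.5 ± 0.998 CPM, with adjusted p-values of 0.904 and 0.966 in edgeR. Rraga therefore made up most of the pair per length, with Rragb at 10.9% ± 2.02 in WT and 11.1% ± 1.43 in Abca4KO (SD, n = 3 each). Ragulator, the scaffold that tethers the Rags to the lysosomal membrane, has 5 subunits, and all 5 overlapped between the genotypes. Their log2 fold changes ran from -0.11 for Lamtor5 to 0.11 for Lamtor3, and the smallest of their adjusted p-values in edgeR was 0.842. Slc38a9, the lysosomal arginine transporter and sensor, measured 20.9 ± 1.64 CPM against 21.2 ± 3.33 CPM (adjusted p = 0.986 in edgeR).

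mTORC1 is the kinase mTOR with its substrate-binding subunit Raptor and mLST8. Mtor, at chr4:148448611-148557683 in mm10, measured 153, 107 and 174 CPM in WT 1, 2 and 3 and 121, 95.4 and 108 CPM in Abca4KO 1, 2 and 3. WT 2 lay inside the Abca4KO range and the other 2 WT libraries above it, so the spread between WT mice was wide. The log2 difference was -0.42 (SE 0.18, 95% interval -0.84 to 0.0037, adjusted p = 0.709 in edgeR), the largest in size of the 36. Its value depended on the libraries used. WT 2 was its lowest WT library and Abca4KO 1 its highest Abca4KO library, so leaving both out widens the difference by construction. Without these 2, which left 2 libraries per genotype, the log2 fold change was -0.70 with an adjusted p of 0.0388 in edgeR. That fit called 1.09% of all genes, and Mtor was the only one of the 36. Without WT 2 alone the adjusted p was 0.202 in edgeR, and without WT 3 the log2 fold change was -0.26. WT 2 is also the library with the most interferon response transcripts and the fewest RPE marker transcripts, and their part in the value of Mtor was not tested.

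Rptor, which encodes Raptor, measured 39.4, 39.1 and 40.1 CPM in WT 1, 2 and 3 and 39.3, 30.1 and 35.97 CPM in Abca4KO 1, 2 and 3 (log2 difference -0.17, SE 0.11, 95% interval -0.43 to 0.093, adjusted p = 0.811 in edgeR). The WT libraries were tight, whereas Abca4KO 2 lay well below the rest and Abca4KO 1 inside the WT range. Mlst8 measured 17.6 ± 1.47 CPM against 15.9 ± 1.31 CPM (adjusted p = 0.868 in edgeR). Rheb encodes the GTPase that activates mTORC1 directly and measured 96.0 ± 8.70 CPM against 99.3 ± 6.30 CPM (adjusted p = 0.946 in edgeR). The TSC complex turns Rheb off. Its scaffold Tsc1 measured 52.3, 47.3 and 49.3 CPM in WT 1, 2 and 3 and 49.0, 42.2 and 48.2 CPM in Abca4KO 1, 2 and 3 (log2 difference -0.10, SE 0.092, 95% interval -0.31 to 0.12, adjusted p = 0.873 in edgeR). Its catalytic subunit Tsc2 measured 76.7, 81.2 and 84.1 CPM in WT 1, 2 and 3 and 86.1, 82.1 and 78.6 CPM in Abca4KO 1, 2 and 3 (log2 difference 0.030, SE 0.077, 95% interval -0.15 to 0.21, adjusted p = 0.964 in edgeR). In both, the genotypes overlapped. The count of Tsc2 is uncertain, because 693 of its exonic bases overlap Pkd1 on the opposite strand, which held 16245 counts against 9162 for Tsc2 over the 6 libraries.

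**Figure D3:**
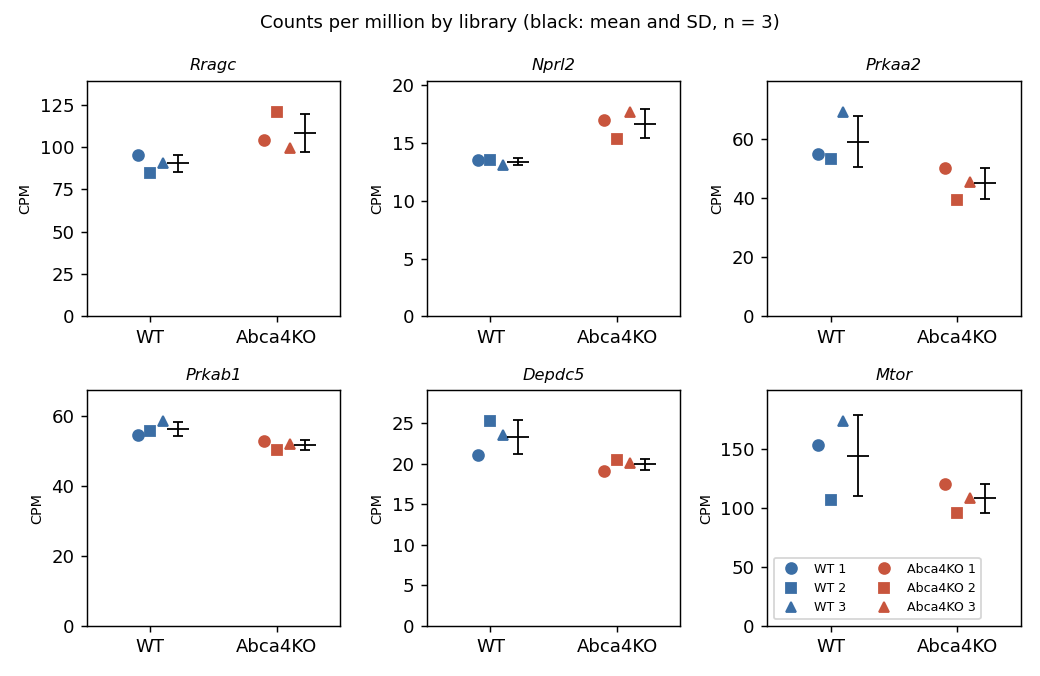
Transcript level (CPM, linear axes from 0) of the 5 genes whose genotypes do not overlap and of Mtor, one point per library, with mean and SD (n = 3) in black. Rragc and Nprl2 are higher and Prkaa2, Prkab1 and Depdc5 lower in all 3 Abca4KO libraries, while WT 2 brings Mtor into the Abca4KO range.

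GATOR1, the complex that turns off RagA and RagB when amino acids are scarce, consists of DEPDC5, NPRL2 and NPRL3, and the differences of its 3 transcripts had no common sign. Nprl2, at chr9:107542226-107545706, measured 13.6, 13.6 and 13.1 CPM in WT 1, 2 and 3 and 17.0, 15.3 and 17.7 CPM in Abca4KO 1, 2 and 3. The WT libraries differed by less than 1 CPM, and every Abca4KO library lay above them. The log2 difference was 0.32 (SE 0.12, 95% interval 0.024 to 0.61, adjusted p = 0.701 in edgeR). Depdc5, at chr5:32863701-32994236, measured 21.2, 25.3 and 23.6 CPM in WT 1, 2 and 3 and 19.1, 20.5 and 20.1 CPM in Abca4KO 1, 2 and 3. The genotypes were separated in the other direction, with WT 1 and Abca4KO 2 nearly touching. For Depdc5 the log2 difference was -0.23 (SE 0.11, 95% interval -0.49 to 0.037, adjusted p = 0.745 in edgeR). Nprl3 measured 72.5 ± 9.59 CPM against 72.5 ± 5.53 CPM (adjusted p = 1 in edgeR), and its count is uncertain because it overlaps Mpg on the opposite strand.

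The cytosolic sensors act on GATOR2, which restrains GATOR1. Sestrin 2, a leucine sensor that stress also induces, is encoded by Sesn2, at 21.9 ± 2.73 CPM against 18.1 ± 2.40 CPM (log2 difference -0.27, SE 0.15, adjusted p = 0.768 in edgeR). Abca4KO 2 was the lowest and WT 2 the highest library. Sesn1, its relative, was the more abundant of the pair per length, at 64.2 ± 2.99 CPM against 64.4 ± 4.03 CPM (adjusted p = 0.993 in edgeR). Castor1, the cytosolic arginine sensor, measured 17.1 ± 0.589 CPM against 16.5 ± 0.813 CPM (adjusted p = 0.953 in edgeR).

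AMPK is a heterotrimer of a catalytic alpha, a scaffold beta and a nucleotide-binding gamma subunit, each with alternative genes. Prkaa2, which encodes alpha 2 and lies at chr4:105029874-105109890, measured 54.9, 53.3 and 69.2 CPM in WT 1, 2 and 3 and 50.1, 39.5 and 45.4 CPM in Abca4KO 1, 2 and 3. The highest Abca4KO library lay below the lowest WT library, and WT 3 was the highest. The log2 difference was -0.39 (SE 0.13, 95% interval -0.71 to -0.078, adjusted p = 0.648 in edgeR), with an unadjusted p of 0.0212. Without WT 3 the log2 fold change was -0.26. Prkaa1, which encodes alpha 1, measured 46.8, 48.1 and 60.7 CPM in WT 1, 2 and 3 and 50.9, 46.9 and 50.9 CPM in Abca4KO 1, 2 and 3 (log2 difference -0.065, SE 0.12, 95% interval -0.34 to 0.21, adjusted p = 0.939 in edgeR). WT 3 was again the highest and the other 5 libraries lay close together.

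Prkaa2 made up 40.6%, 39.3% and 40.0% in WT 1, 2 and 3 and 36.5%, 33.0% and 34.3% in Abca4KO 1, 2 and 3 of the sum of Prkaa1 and Prkaa2 per length. The genotypes were fully separated, at 40.0% ± 0.686 against 34.6% ± 1.77 (SD, n = 3 each; exact 2-sided permutation p = 0.1, the smallest this design allows, and 0.225 adjusted over the 9 pairs). For the beta subunits the share of the second gene was the higher one in Abca4KO. Prkab2 made up 22.3%, 26.3% and 20.5% in WT 1, 2 and 3 and 26.6%, 28.7% and 30.9% in Abca4KO 1, 2 and 3 of the pair, without overlap, though WT 2 and Abca4KO 1 nearly touched. The exact permutation p-values were again 0.1 and 0.225. Prkab1, which encodes beta 1 and lies at chr5:116013586-116024508, measured 54.5, 55.5 and 58.4 CPM in WT 1, 2 and 3 and 52.7, 50.1 and 51.8 CPM in Abca4KO 1, 2 and 3 (log2 difference -0.12, SE 0.074, 95% interval -0.30 to 0.051, adjusted p = 0.792 in edgeR). Prkab2, which encodes beta 2, measured 26.0, 32.9 and 25.1 CPM in WT 1, 2 and 3 and 31.7, 33.4 and 38.6 CPM in Abca4KO 1, 2 and 3 (log2 difference 0.30, SE 0.14, 95% interval -0.017 to 0.63, adjusted p = 0.717 in edgeR), and WT 2 lay inside the Abca4KO range. Prkab2 lies on the chromosome of Abca4, 24386250 bases from it between their start coordinates.

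The gamma subunit genes Prkag1, at 22.4 ± 1.60 CPM against 24.1 ± 2.61 CPM, and Prkag2, at 20.1 ± 2.73 CPM against 20.9 ± 1.38 CPM, overlapped between the genotypes (adjusted p = 0.899 and 0.961 in edgeR). Prkag2 made up 23.3% ± 3.68 of the pair per length in WT and 22.7% ± 3.08 in Abca4KO (SD, n = 3 each). Stk11, which encodes the AMPK-activating kinase LKB1, measured 101 ± 5.48 CPM against 103 ± 5.93 CPM (adjusted p = 0.97 in edgeR). Its count is uncertain because it overlaps Cbarp on the opposite strand, with 3755 counts against 11410 for Stk11.

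**Figure D4:**
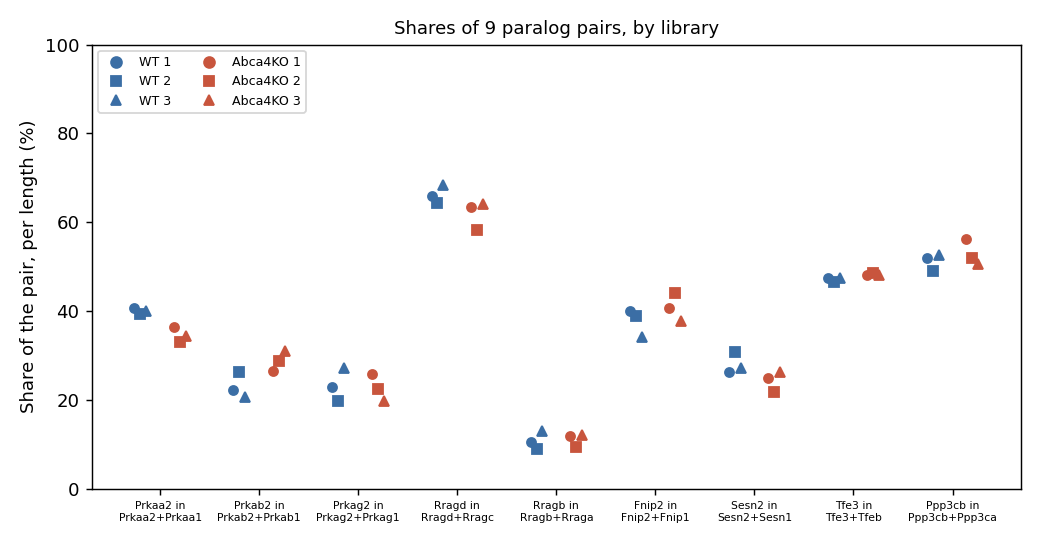
Share of one gene in the sum of a paralog pair, computed per length (%, y axis), for 9 pairs in each of the 6 libraries. The genotypes do not overlap for Prkaa2, Prkab2, Rragd and Tfe3, and overlap for the other 5 pairs. No background over other gene pairs is given.

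Of the other paralog pairs, the share of Fnip2 with Fnip1 was 37.7% ± 3.14 in WT and 40.8% ± 3.07 in Abca4KO. That of Sesn2 with Sesn1 was 28.1% ± 2.41 and 24.4% ± 2.40 (SD, n = 3 each). Both pairs overlapped between the genotypes. Over all 9 pairs the smallest adjusted p in the exact permutation test was 0.225, so none passed. At this number of mice that test could not have called a pair. How often the shares of other gene pairs separate is not given here, so the pairs without overlap cannot be set against a background. Prkaa2, Prkab1 and Rragc, which belong to such pairs, were already separated as single genes.

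Calcineurin removes the phosphates that hold TFEB in the cytosol, and its catalytic subunit is encoded by Ppp3ca and Ppp3cb in most tissues. Ppp3ca measured 98.3, 104 and 96.8 CPM in WT 1, 2 and 3 and 91.9, 99.2 and 99.3 CPM in Abca4KO 1, 2 and 3 (log2 difference -0.043, SE 0.074, 95% interval -0.22 to 0.13, adjusted p = 0.936 in edgeR). Ppp3cb measured 93.6, 88.2 and 95.1 CPM in WT 1, 2 and 3 and 104, 94.9 and 89.9 CPM in Abca4KO 1, 2 and 3 (log2 difference 0.061, SE 0.083, 95% interval -0.13 to 0.26, adjusted p = 0.917 in edgeR). Both overlapped between the genotypes. Among 18 tested genes of calcineurin regulation and lysosomal calcium, 8 were positive, against 47.8% of all tested genes. Nfatc1, a transcription factor that calcineurin activates, measured 34.2 ± 8.99 CPM against 24.8 ± 2.03 CPM, with no overlap (log2 difference -0.46, SE 0.19, adjusted p = 0.701 in edgeR). Mcoln1, the lysosomal calcium channel upstream of calcineurin, measured 39.0 ± 3.11 CPM against 46.2 ± 7.24 CPM (log2 difference 0.24, SE 0.13, adjusted p = 0.761 in edgeR). The regulatory subunit gene Ppp3r1 measured 149.5 ± 10.5 CPM against 138 ± 5.47 CPM (log2 difference -0.11, SE 0.081, adjusted p = 0.827 in edgeR).

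Further genes of the same pathways were read from 10 lists. Of the 154 tested that are not among the 36, none passed an adjusted p of 0.05 in edgeR. At an unadjusted p under 0.05, 14 were higher, against 3.15% of all tested genes, and 10 were lower, against 3.87%. Of the 14, 10 were the TFEB targets described below, 3 were in the list of GATOR and amino acid sensors and 1 in that of AMPK upstream kinases. The other lists held none that were higher. Of the 10 that were lower, 1 was a TFEB target. limma-voom called none, and DESeq2 called 3, among them Gpnmb and Atp6v0d2, described with the TFEB targets. In the list of GATOR2, KICSTOR and amino acid sensors and transporters, 12 of 18 were positive, against 47.8% of all tested genes. The median log2 difference of the list was 0.042. Slc7a5 and Slc3a2 encode the light and heavy chains of one leucine transporter of the plasma membrane. Slc7a5 measured 249.6, 239 and 268 CPM in WT 1, 2 and 3 and 279.7, 327 and 323 CPM in Abca4KO 1, 2 and 3 (log2 difference 0.30, SE 0.091, adjusted p = 0.616 in edgeR). Slc3a2 measured 376, 358 and 367 CPM in WT 1, 2 and 3 and 399, 440.5 and 461 CPM in Abca4KO 1, 2 and 3 (log2 difference 0.24, SE 0.082, adjusted p = 0.641 in edgeR). In both, the lowest Abca4KO value exceeded the highest WT value. Itfg2, a KICSTOR subunit that anchors GATOR1 to the lysosome, measured 17.5 ± 1.12 CPM against 21.8 ± 0.895 CPM, also without overlap (log2 difference 0.32, SE 0.11, adjusted p = 0.662 in edgeR). The 1 gene of the list that was lower at an unadjusted p under 0.05 was Sesn3, a relative of Sesn1 and Sesn2, at 885 ± 108 CPM against 710.4 ± 97.7 CPM, with overlap (log2 difference -0.32, SE 0.13, adjusted p = 0.706 in edgeR).

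Growth factor signals reach mTORC1 through PI3K and AKT. In that list, 14 of 17 were negative with a median of -0.11. Over all tested genes, 9047 of 17340 were negative with a median of -0.011. The lists were chosen with earlier results of these data known. Irs2, an insulin receptor adaptor, measured 233 ± 8.92 CPM against 208 ± 12.0 CPM (log2 difference -0.17, SE 0.077, adjusted p = 0.718 in edgeR), without overlap. Pik3r1, the regulatory subunit of PI3K, measured 192 ± 21.6 CPM against 157 ± 16.6 CPM (log2 difference -0.29, SE 0.11, adjusted p = 0.701 in edgeR), with overlap. Among mTORC1 outputs 9 of 14 were negative with a median of -0.075. The smallest p there was that of Maf1, a repressor of RNA polymerase III, at 69.3 ± 4.95 CPM against 61.2 ± 3.86 CPM. Of the 8 partners of mTORC1 itself, 4 were positive, and the smallest adjusted p was 0.809 in edgeR, for Telo2. Of the 4 subunits of mTORC2, 3 were negative, and Prr5l measured 54.4 ± 0.926 CPM against 48.0 ± 2.02 CPM without overlap (log2 difference -0.18, SE 0.075, adjusted p = 0.706 in edgeR).

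Around AMPK, 6 of 9 upstream kinases and partners were negative with a median of -0.10, against 9047 of 17340 tested genes that were negative. Stradb, a pseudokinase partner of LKB1, measured 16.8 ± 1.56 CPM against 20.6 ± 0.853 CPM, higher in every Abca4KO library than in any WT library (log2 difference 0.29, SE 0.12, adjusted p = 0.706 in edgeR). Map3k7, which encodes the kinase TAK1, was lower at 108 ± 6.82 CPM against 94.5 ± 5.38 CPM, with overlap (log2 difference -0.20, SE 0.083, adjusted p = 0.706 in edgeR). Of 16 AMPK substrates and related kinases, 10 were negative with a median of -0.055. Sik1 and Sik2, which encode salt-inducible kinases that LKB1 also activates, had the lowest unadjusted p-values of that list. Sik2 measured 10.2, 12.6 and 10.6 CPM in WT 1, 2 and 3 and 7.92, 6.50 and 7.26 CPM in Abca4KO 1, 2 and 3 (log2 difference -0.62, SE 0.18, adjusted p = 0.616 in edgeR). Sik1 measured 31.6, 44.3 and 31.2 CPM in WT 1, 2 and 3 and 27.8, 24.7 and 23.9 CPM in Abca4KO 1, 2 and 3 (log2 difference -0.49, SE 0.16, adjusted p = 0.625 in edgeR). For both, every Abca4KO library lay below every WT library, while neither passed the test. Sik3, the remaining salt-inducible kinase gene, overlapped between the genotypes at 87.0 ± 5.95 CPM against 83.6 ± 4.30 CPM (log2 difference -0.057, SE 0.084, adjusted p = 0.926 in edgeR). In the list of MiT/TFE relatives and TFEB partners, 9 of 17 were positive with a median of 0.023.

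**Figure D5:**
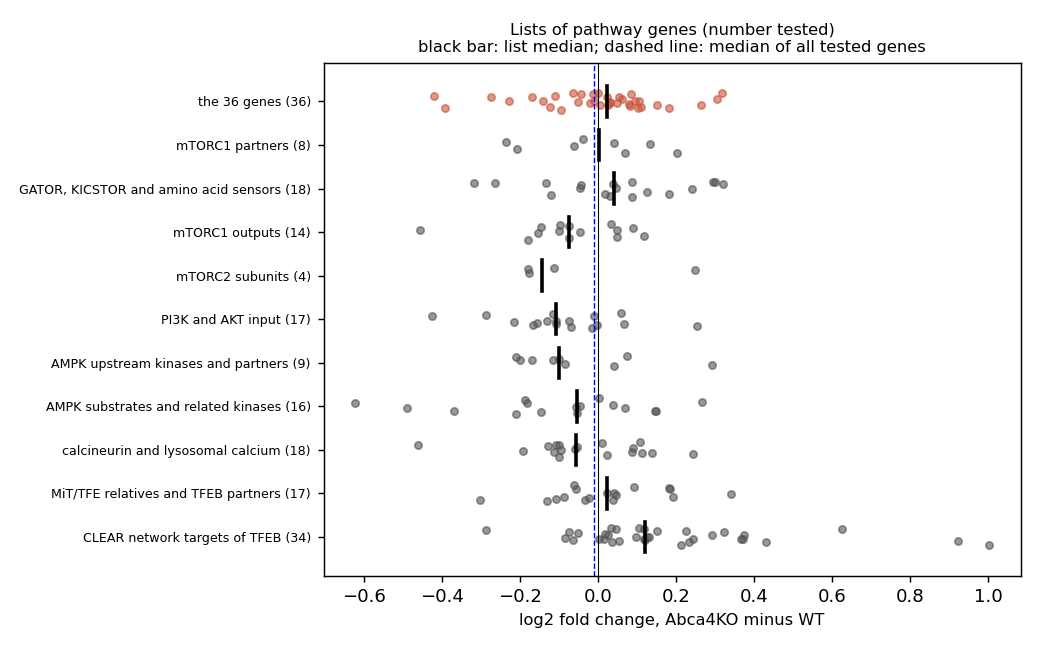
Log2 fold change (Abca4KO minus WT, x axis) of each tested gene in the 36 and in 10 lists of related genes, one point per gene. Black bars are list medians, which run from -0.14 for mTORC2 subunits to 0.12 for TFEB targets, and the dashed line is the median of all tested genes.

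The CLEAR network, the set of lysosomal and autophagy genes that TFEB is known to bind and induce, was read as the downstream side of the circuit. Of 34 such genes, 29 were positive, and the median log2 difference was 0.12, against 47.8% positive of all tested genes. At an unadjusted p under 0.05, 10 were higher, against 3.15% of all tested genes, and 1 was lower, against 3.87%. None passed an adjusted p of 0.05 in edgeR. Gpnmb, a glycoprotein of lysosomes and melanosomes, measured 1398, 1072 and 1263 CPM in WT 1, 2 and 3 and 1807, 2954 and 2317 CPM in Abca4KO 1, 2 and 3 (log2 difference 0.92, SE 0.19, adjusted p = 0.453 in edgeR). Atp6v0d2, a V-ATPase subunit, measured 58.6, 43.8 and 42.6 CPM in WT 1, 2 and 3 and 66.2, 132 and 92.3 CPM in Abca4KO 1, 2 and 3 (log2 difference 1.00, SE 0.25, adjusted p = 0.546 in edgeR). The genotypes were fully separated in both, with Abca4KO higher. DESeq2 called them with adjusted p-values of 4.88e-05 and 0.00555, while it called 0.657% of all tested genes. The edgeR fit without WT 2 and Abca4KO 1 also called them, with adjusted p-values of 0.0266 and 0.0472, while it called 1.09% of all tested genes. For both genes Abca4KO 1 is the lowest Abca4KO library, so leaving it out raises the Abca4KO mean by construction. The 1 that was lower was Wipi1, an autophagosome protein, at 135 ± 15.3 CPM against 111 ± 7.61 CPM.

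Of the CLEAR genes, those higher in Abca4KO at an unadjusted p under 0.05 numbered 10 with all libraries. They numbered 6 without WT 3 and 4 without Abca4KO 2, but 14 without Abca4KO 1 and 15 without WT 2 and Abca4KO 1. Counted in both directions, the number was 11 with all libraries, 7 without WT 1, 7 without Abca4KO 3 and 11 without WT 2. The share of all genes under that threshold in those fits is not given here, so these counts cannot be set against a background. Abca4KO 2 was the library with the highest sum of macrophage markers, 6709 CPM. The macrophage sums overlapped between the genotypes and 8 of 12 markers had a positive difference. The 3 with fully separated genotypes and higher values in Abca4KO were Cd68 at 94.6 ± 26.7 CPM against 182 ± 47.5 CPM, Ctss at 370.5 ± 192 CPM against 992 ± 352 CPM and Lyz2 at 1614 ± 413 CPM against 3001 ± 914 CPM. Csf1r was also fully separated but lower in Abca4KO, at 580.1 ± 13.7 CPM against 534 ± 14.8 CPM, and Ptprc, Aif1 and Cx3cr1 had negative log2 differences of -0.76, -0.43 and -0.18. The sums of 8 fibroblast and sclera markers did not overlap, at 1459 to 1767 CPM in WT and 1787 to 2249 CPM in Abca4KO, with 7 of 8 positive. Each of the 10 endothelial markers had a positive log2 difference (median 0.55), 5 of them at an unadjusted p under 0.05, against 3.15% of all tested genes that were higher at that threshold. The part of these marker lists in the difference of the CLEAR genes was not tested. The list was chosen with earlier results of these data known, so its direction is not independent evidence. Of 27 CLEAR genes with a promoter window, 6 (22.2%) held the core TCACGTGA, against 1.12% of all genes and none of the 34 with a window among the 36. None of the 27 held the longer palindrome, and 12 (44.4%) held the E-box, against 8.09% of all genes. The network was defined in part by this motif.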

How the data were processed

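RPE RNA was measured in 6 libraries, 3 per genotype, each from a separate mouse. Per the labels' protocols, libraries were made from 1 µg RNA with the NEBNext Ultra RNA kit. The authors deposited a table of unnormalized read counts, 1 whole number for each gene and library. STAR, HTSeq and mm10 are named in the submitters' processing notes, and no source used here gives strand use or annotation release. The deposited gene length is another column, whose derivation is not given.

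The members and lists were chosen with earlier results of these data known. Genes were filtered with filterByExpr (minimum count 10), scaled with TMM factors and tested 2-sided with edgeR 4.0.16 quasi-likelihood (R 4.3.3), with no covariate and Benjamini-Hochberg adjustment over all 17340 genes. Each SE was derived from the log2 difference and its F statistic (difference over root F). The code was tested on simulated data. A count of 3 corresponded to 0.152 to 0.174 CPM, a floor for counting error alone. No 2 libraries were alike within sampling noise, since chi-square per degree of freedom was at least 12.6.

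Per-library values were printed for genes fixed by rule, for members with an unadjusted p under 0.05 and for members without overlap between genotypes. Up to 3 genes per list with the smallest p served as examples, and some of them are not reported here. Wipi1, 3 macrophage markers and the per-library values of Prkab2 were chosen after their values were seen. Alternatives were other size factors and filters, DESeq2 1.42.0, limma 3.58.1 voom with weighted samples, a replicate block, and libraries left out. Symbols and coordinates are those of the deposited table; 35 of 36 genes had the same coordinates in GENCODE M21. Overlapping exons were searched there for the 36 genes, and similar transcripts with BLAST+ 2.17.0 at 95% identity over 200 bases. Lamtor1 (755 counts in its partner Lrrc51) and Nprl3 (1024 in Mpg) are uncertain, as are Stk11 and Tsc2. The other overlapping partners held at most 87 counts and the similar Gm15190 of Lamtor5 held 26. Promoter sequences are from RefSeq (GRCm38.p6), which matched 34 of the 36 symbols.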

Additional observations from a re-analysis of the deposited data

How the results depend on the processing

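No member passed an adjusted p of 0.05 under any of the 14 settings tried except without WT 2 and Abca4KO 1, which gave 1 (Mtor). That setting leaves out the lowest WT and the highest Abca4KO library of Mtor. The count of members with an unadjusted p under 0.05 was 3 in the main test, 5 with limma-voom, and 0 to 3 when single libraries were left out. The share of all genes at that threshold is given for the main test only (7.02%), so the other counts lack a background. Among the 154 other pathway genes, limma-voom also gave more, 41 against 24 in the main test. The count of all genes past the adjusted threshold was 8, but 19 with no filter on low counts, 114 with DESeq2, 31 with limma-voom, 190 without WT 2 and Abca4KO 1, and 3 to 11 with single libraries left out. Leaving out WT 1 gave 4, and leaving out Abca4KO 2 or Abca4KO 3 gave 3 each. Among members at an unadjusted p under 0.05, leaving out WT 3 gave 0, and leaving out Abca4KO 2 or Abca4KO 3 gave 1 each. The median log2 fold change of the 36 genes stayed within -0.028 to 0.040. The labels state no pairing of samples by replicate number. Correlations of same-numbered deviations were 0.221, 0.382 and -0.0975. Those of differently numbered libraries are not given here, so these values cannot decide whether samples were paired. With the replicate block 9 genes and no member passed. At an unadjusted p under 0.05, Mtor took the place of Nprl2 with the block, and with no filter on low counts Mtor and Prkab2 did.

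Signs turned for members with small differences. Nprl3 became 0.0020 with RLE size factors, 0.010 with upper-quartile size factors, 0.0012 with no filter, 0.0021 with DESeq2 and 0.0050 with the replicate block, all log2. With limma-voom the values were -0.062 for Rheb, -0.00080 for Lamtor1, -0.085 for Slc38a9, 0.00090 for Castor1, -0.064 for Sesn1 and 0.020 for Prkaa1. Without WT 2 and Abca4KO 1 they were -0.058 for Rheb, -0.013 for Tsc2, -0.16 for Rragb, 0.075 for Lamtor4, 0.0091 for Lamtor5, -0.068 for Slc38a9, -0.057 for Sesn1, -0.092 for Prkag2, 0.011 for Ppp3ca and -0.043 for Ppp3cb. With single libraries left out, ranges that spanned 0 were -0.0051 to 0.066 for Tsc2, -0.11 to 0.069 for Rragd, -0.11 to 0.070 for Nprl3, -0.023 to 0.10 for Rheb, -0.11 to 0.32 for Rragb, -0.11 to 0.086 for Lamtor4, -0.033 to 0.17 for Prkag2, -0.040 to 0.021 for Fnip1, -0.059 to 0.11 for Lamtor1, -0.10 to 0.13 for Slc38a9, -0.044 to 0.046 for Sesn1 and -0.13 to 0.068 for Prkaa1. The share of Prkag2 differed by -2.28 to 1.39 and that of Rragb by -0.701 to 1.30 percentage points. The cause was not tested. Rragc, Nprl2, Prkaa2, Depdc5 and Prkab1 kept their sign in all 14. Their genotypes were fully separated, so leaving libraries out keeps the sign by construction, and those settings do not test it. The count of members without overlap was chosen for this check after seeing the data: 5 became 12 without WT 2 and 20 without WT 2 and Abca4KO 1, where 28.0% and 48.1% of all genes did not overlap.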

Other observations

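The highest and lowest library of each of the 36 genes was counted. WT 2 was the lowest library for 10 of them and WT 3 for 9, while WT 3 was the highest for 11 and WT 2 for 7. Abca4KO 1 was the highest for 4 and the lowest for 5. Over all tested genes WT 2 was the highest library for 24.9% and the lowest for 19.9%, WT 3 was the highest library for 18.7% and the lowest for 20.2%, and Abca4KO 1 was the highest library for 13.9% and the lowest for 13.5%. The mean log2 CPM of the 36 lay between 5.51 and 5.54 in the 6 libraries.

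Besides Prkab2, 5 of the 36 lie on the chromosome of Abca4, and the nearest by start coordinate is Ppp3ca, 14625681 bases away, followed by Lamtor5 at 14765585 and Lamtor3 at 15874063. Their log2 fold changes were -0.043, -0.11 and 0.11. Lamtor2 and Fnip2, farther away, had 0.10 and 0.18.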
